A study of Mus musculus with 10 samples.

Results

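The Gimap genes encode GTPases of immunity-associated proteins, a family of small GTP-binding proteins. The 8 members examined were Gimap1, Gimap3, Gimap4, Gimap5, Gimap6, Gimap7, Gimap8 and Gimap9. They were taken by name from a table of 37882 genes, and each name matched 1 row. The family was taken up with earlier results of these counts in view, so its members are treated as chosen by their values in the comparison of treatment groups. Their differences between those groups are therefore a description and support nothing by themselves. All 8 members passed the filter on low counts that left 14063 genes for testing.

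RNA came from tumours of MCa-M3C, a single mouse mammary tumour cell line, grown in the mammary site of FVB/N mice. Tumours were matched in age and in volume, at about 100 mm3, when the mice were divided into groups. The control group (replicates 1 to 5) received PBS and the TMA-ARB group (replicates 6 to 10) received TMA-ARB carrying 40 mg/kg of valsartan, both injected intravenously behind the eye every day for 6 days. TMA-ARB is a form of the angiotensin receptor blocker valsartan designed to become active in the tumour microenvironment. No other treatment or genetic change is named for either group, and the labels do not say that each library came from a separate mouse, and p-values then reflect only how these libraries vary, which may be technical.

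Gimap proteins carry a GTP-binding domain of the AIG1 type, and several are anchored in membranes of intracellular organelles. They are best known from lymphocytes, where loss of Gimap1 or Gimap5 in mice depletes mature T cells. Several members are also expressed in blood vessel endothelium. Both cell types are minor parts of a tumour, and in bulk RNA fewer cells of a type cannot be told apart from less RNA per cell.

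The 8 genes lie in 1 cluster on mouse chromosome 6, spanning 123618 bases on the mm10 assembly, with 6 genes on the plus strand and 2 (Gimap6 and Gimap3) on the minus strand. In order along the chromosome they are Gimap8 (chr6:48647234-48660875), Gimap9 (chr6:48676129-48679114), Gimap4 (chr6:48684549-48692060) and Gimap6 (chr6:48701582-48708225). Gimap7 (chr6:48718621-48724636), Gimap1 (chr6:48739054-48743795), Gimap5 (chr6:48746197-48754210) and Gimap3 (chr6:48764464-48770851) follow. All are protein-coding genes in GENCODE release M21. Coding lengths ran from 873 bases (Gimap9) to 984 bases (Gimap4) in 7 members, and Gimap8, whose protein carries several GTP-binding domains, had 2064.

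Gimap3 (ENSMUSG00000039264) and Gimap5 (ENSMUSG00000043505) stood apart from the other pairs in sequence. Their coding sequences were identical at 809 of 895 aligned bases (90.4%), while the next closest pair, Gimap7 and Gimap9, matched at 66.6%. The longest run of identical bases in the Gimap3 and Gimap5 coding sequences was 140 bases, and in the 27 other pairs it was at most 17. The stretch around this run is shown because a read lying wholly within the run matches both genes. Capitals mark the identical run, with 30 bases of flanking coding sequence on each side in lower case (coding bases 145 to 344 of Gimap3 and 157 to 356 of Gimap5, 5′ to 3′, from the GENCODE M21 transcripts).
Gimap3: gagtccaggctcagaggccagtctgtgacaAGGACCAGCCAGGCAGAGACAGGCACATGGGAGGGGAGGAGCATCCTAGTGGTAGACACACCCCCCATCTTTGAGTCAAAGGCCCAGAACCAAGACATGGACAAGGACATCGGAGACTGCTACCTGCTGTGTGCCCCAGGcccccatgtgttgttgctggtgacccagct
Gimap5: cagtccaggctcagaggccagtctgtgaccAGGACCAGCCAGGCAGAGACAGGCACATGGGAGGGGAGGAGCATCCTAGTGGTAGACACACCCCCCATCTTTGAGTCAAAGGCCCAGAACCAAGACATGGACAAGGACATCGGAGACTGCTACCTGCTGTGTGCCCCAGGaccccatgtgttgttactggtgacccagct

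Of all distinct 31-base words in the annotated Gimap3 transcripts, 335 of 2547 also occurred in Gimap5. No other pair of members shared such a word. In all, 14.6% of Gimap3 words and 10.3% of Gimap5 words occurred in transcripts of some other gene. Gimap4 and Gimap9 had 0 such words, and the share was 0.676% in Gimap8, 1.28% in Gimap6, 2.20% in Gimap7 and 8.36% in Gimap1. All 51 shared words of Gimap7 and 168 of the 259 of Gimap1 occur in Gm28053. This annotated transcript unit spans both genes, reaches into Gimap5 and held 3 counts over all 10 libraries. Values of Gimap3 and Gimap5 carry extra uncertainty, since the counting divided their shared reads between them.

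Library totals ran from 12742953 to 16884621 counts, and 146 (Gimap7) to 2136 (Gimap4) counts per member were found over the 10 libraries. Per library the 8 members together held 288 to 944 counts, or 0.00226% to 0.00662% of the total. Mitochondrially encoded genes took a share that ran from 2.07% to 6.63% in controls and from 2.22% to 24.97% under TMA-ARB, and was above 10% in TMA-ARB replicates 8, 9 and 10. The family's summed level was 62.1, 49.3, 45.9, 38.9 and 38.4 CPM in control replicates 1 to 5 and 54.9, 48.1, 24.6, 29.5 and 43.0 CPM in TMA-ARB replicates 6 to 10. CPM here are counts scaled to the TMM-adjusted library size. The groups overlapped, and TMA-ARB replicates 8 and 9 were the lowest.

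Levels were compared between members within libraries, as CPM per kilobase of the principal transcript, a scale that corrects for length. Gimap4, linked to T cell maturation and death, and Gimap6, a binding partner of the autophagy protein Gabarapl2, were the most abundant, at 7.79 ± 2.14 and 6.75 ± 2.24 CPM per kb (SD, n = 10 libraries). Gimap1 followed at 2.27 ± 1.04, Gimap3 at 2.09 ± 1.09, Gimap9 at 1.73 ± 0.67, Gimap8 at 1.68 ± 0.49, Gimap5 at 1.11 ± 0.43 and Gimap7 at 0.757 ± 0.48 CPM per kb. Gimap7 encodes a family member whose own GTPase activity rises on dimerisation.

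Of the 7 pairs of neighbours in this order, only Gimap6 over Gimap1 differed beyond the spread between libraries. Gimap6 was the higher in 10 of 10 libraries, by 1.66 ± 0.64 on the log2 scale (SD; two-sided exact sign-flip permutation p = 0.00195, the smallest that 10 libraries allow; 0.0137 after Benjamini-Hochberg adjustment over the 7 pairs). Gimap4 exceeded Gimap6 in 7 of 10 libraries, with a mean log2 ratio of 0.22 ± 0.41 (adjusted exact p = 0.205). Gimap8 exceeded Gimap5 in 8 of 10 libraries by 0.63 ± 0.74 (adjusted exact p = 0.082). The other 4 pairs had adjusted exact p-values from 0.205 to 0.916. With the merged length of all exons in place of the principal transcript, 3 neighbouring pairs were told apart: Gimap4 over Gimap6 (log2 ratio 1.33), Gimap6 over Gimap3 (0.91) and Gimap1 over Gimap5 (1.01). On that scale Gimap1 dropped from the third place to the sixth, so the middle of the order depends on the length used.

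**Figure D1:**
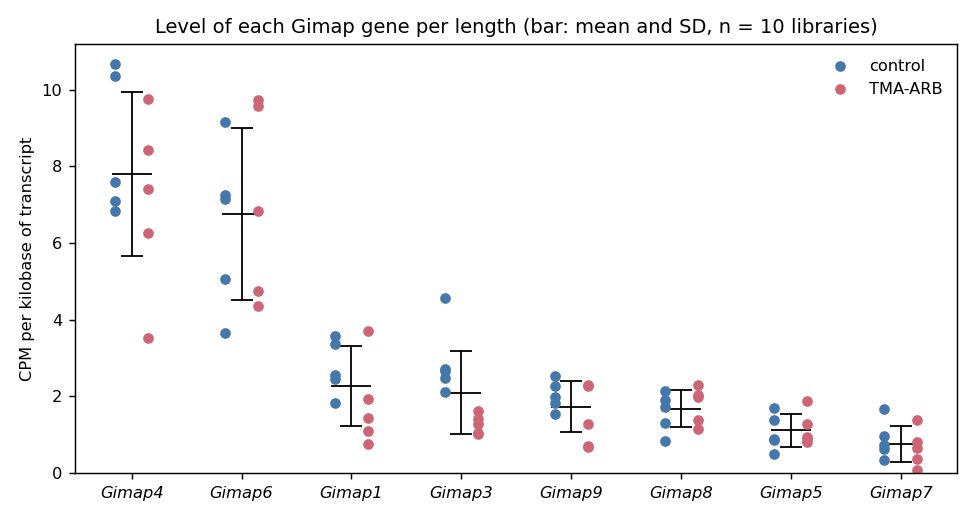
Level of each member in CPM per kilobase of its principal transcript, in order of the mean. Points are libraries (blue control, red TMA-ARB) and bars the mean and SD over 10 libraries; Gimap4 and Gimap6 lie above the other 6 members.

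The design asks which genes differ between TMA-ARB and control tumours. The members' fold changes had both signs. Gimap3, whose product affects mitochondrial DNA segregation in mouse blood tissues, was lower in every TMA-ARB library than in any control. Gimap1, Gimap9, Gimap7 and Gimap4 had lower means under TMA-ARB with overlapping groups, and Gimap5, Gimap6 and Gimap8 had means that were slightly higher. None of the 8 members passed edgeR's quasi-likelihood test at an adjusted p under 0.05 (0 of 8), nor did any other gene: the share called was 0% of the 14063 genes tested, with 457 at an unadjusted p under 0.05. DESeq2 called 2 genes and limma-voom 0, none of them a member.

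Gimap3 measured 9.80, 4.54, 5.69, 5.81 and 5.34 CPM in control replicates 1 to 5. It measured 3.45, 2.76, 2.22, 2.15 and 3.04 CPM in TMA-ARB replicates 6 to 10. The groups did not overlap, and control replicate 1 was well above the other controls. The group means were 6.24 ± 2.05 and 2.72 ± 0.55 CPM (SD, n = 5), a log2 fold change of -1.19 ± 0.33 (SE) that did not pass (edgeR unadjusted p = 0.00279, adjusted p = 0.997). It was the only one of the 8 members with groups that did not overlap and the only one with an unadjusted p under 0.05. Among all genes tested 0.526% had groups that did not overlap (0.363% with TMA-ARB lower) and 3.25% an unadjusted p under 0.05 (1.66% lower). Without control replicate 1 the log2 fold change was -0.97, and it was -1.04 in a fit that included the mitochondrial share on the log2 scale. Among the libraries below a 5% mitochondrial share Gimap3 averaged 6.56 CPM in 3 controls and 3.11 in 2 TMA-ARB libraries. Above it the means were 5.75 CPM in 2 controls and 2.47 in 3 TMA-ARB libraries. Those controls had shares of 6.37% and 6.63%, and those TMA-ARB libraries 10.5% to 24.97%. Share and treatment therefore cannot be told apart above 5%.

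Gimap5, the near copy of Gimap3 whose loss causes lymphopenia in rodents, had groups that overlapped. It measured 2.70, 3.31, 0.981, 1.72 and 1.70 CPM in control replicates 1 to 5 and 2.48, 3.68, 1.85, 1.74 and 1.55 CPM in TMA-ARB replicates 6 to 10. The ranges were nearly the same, with TMA-ARB replicate 7 the highest and control replicate 3 the lowest. The log2 fold change was 0.12 ± 0.46 (SE; edgeR adjusted p = 0.997), and its sign changed with 1 library left out (control replicate 3 or TMA-ARB replicate 7). The difference between the Gimap3 and Gimap5 fold changes was not tested, because the family had been chosen with this contrast known.

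Since the 2 genes share reads, their sum and their ratio were also taken; the sum does not depend on how shared reads were divided between them. The sum was 12.5, 7.85, 6.67, 7.53 and 7.04 CPM in control replicates 1 to 5 and 5.94, 6.45, 4.06, 3.90 and 4.59 CPM in TMA-ARB replicates 6 to 10. The summed levels did not overlap between groups, although TMA-ARB replicate 7 lay close to control replicate 3. Gimap3 held most of the summed counts in every control, so this largely repeats the Gimap3 values, whose groups did not overlap either. Among all genes tested 0.526% had groups that did not overlap. Gimap3 made up 78.4%, 57.9%, 85.3%, 77.1% and 75.9% of the Gimap3 and Gimap5 counts in the controls, and 58.2%, 42.9%, 54.5%, 55.3% and 66.2% under TMA-ARB. The shares overlapped, because control replicate 2 lay among the TMA-ARB libraries. Its 95% exact binomial interval was 49.2% to 66.1%, and the widest interval, in TMA-ARB replicate 9 with 38.3% to 71.4%, rests on few counts. These intervals cover counting error only.

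**Figure D2:**
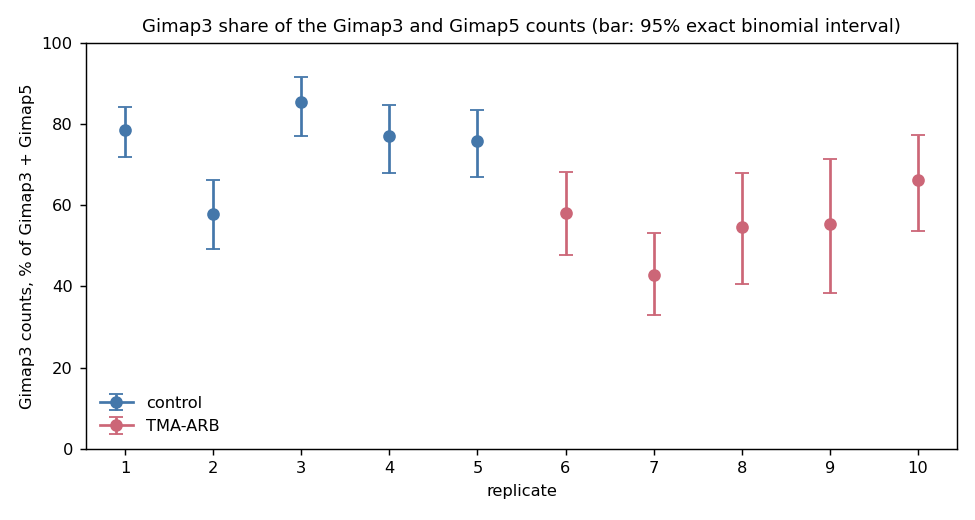
Gimap3 counts as a percentage of the Gimap3 and Gimap5 counts in each library, with 95% exact binomial intervals (blue control, red TMA-ARB). In 4 controls the share is 75.9% or above, and control replicate 2 (57.9%) lies within the TMA-ARB range of 42.9% to 66.2%.

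Gimap1, needed for the survival of mature lymphocytes, measured 5.32, 3.65, 5.03, 2.73 and 3.82 CPM in control replicates 1 to 5 and 5.51, 2.89, 1.11, 2.15 and 1.62 CPM in TMA-ARB replicates 6 to 10. TMA-ARB replicate 6 held the highest value of all, while replicates 8, 9 and 10 were below every control. The log2 fold change was -0.62 ± 0.45 (SE; edgeR adjusted p = 0.997), and leaving out TMA-ARB replicate 6 gave -1.07. Leaving out replicates 8, 9 and 10 of that group gave 0.04. Below a 5% mitochondrial share the mean was 4.26 CPM for the controls against 4.20 CPM for treated tumours, while above it the means were 3.88 and 1.63 CPM. Above 5% the shares of the groups did not overlap, so share and treatment cannot be told apart there. Over the 10 libraries Gimap1 had Pearson r = -0.72 with the log2 mitochondrial share (permutation p = 0.0198, adjusted 0.0792). That p-value takes in the difference between treatment groups, and with each group's mean removed r was -0.64. With the mitochondrial share as a term in the edgeR fit the log2 fold change of Gimap1 was -0.39.

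Gimap9 had the same division. It measured 3.48, 2.13, 3.14, 2.51 and 2.73 CPM in control replicates 1 to 5 and 3.15, 3.16, 0.96, 0.923 and 1.76 CPM in TMA-ARB replicates 6 to 10. The TMA-ARB libraries above a 10% mitochondrial share were below every control and the other 2 lay among the highest controls. The log2 fold change was -0.48 ± 0.46 (SE; adjusted p = 0.997 in edgeR), and 0.18 without TMA-ARB replicates 8, 9 and 10.

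Gimap4, the most abundant member, measured 18.7, 19.2, 12.8, 12.3 and 13.7 CPM in control replicates 1 to 5 and 17.6, 13.4, 6.35, 11.3 and 15.2 CPM in TMA-ARB replicates 6 to 10. TMA-ARB replicates 8 and 9 were below the control range and the other 3 within it, and the log2 fold change was -0.27 ± 0.27 (SE; edgeR adjusted p = 0.997). Gimap7 was the lowest member, at 0.425 to 2.10 CPM in controls and 0.103 to 1.76 CPM under TMA-ARB. Its lowest value was a single count in TMA-ARB replicate 9 (95% exact Poisson interval 0.0253 to 5.57 counts), so the log2 fold change of -0.36 ± 0.68 rests on little depth.

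Gimap6 measured 14.6, 11.6, 11.4, 5.81 and 8.07 CPM in control replicates 1 to 5 and 15.3, 15.5, 6.94, 7.59 and 10.9 CPM in TMA-ARB replicates 6 to 10. Both groups spanned nearly the same range, and the log2 fold change was 0.13 ± 0.31 (SE; edgeR adjusted p = 0.997). Gimap8 measured 5.39, 4.10, 5.95, 6.74 and 2.61 CPM in the controls and 6.42, 6.25, 4.36, 3.59 and 7.23 CPM under TMA-ARB. The groups overlapped, and the log2 fold change was 0.17 ± 0.34. Its direction differed on each side of a 5% mitochondrial share, with 4.03 CPM in controls against 6.33 under TMA-ARB below it and 6.35 against 5.06 above it. Above 5% every TMA-ARB library had a higher share than any control. Gimap8 was the member with the weakest relation to the mitochondrial share over the libraries (Pearson r = -0.08; permutation p = 0.821), and TMA-ARB replicate 10, with a share of 11.7%, held its highest value.

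**Figure D3:**
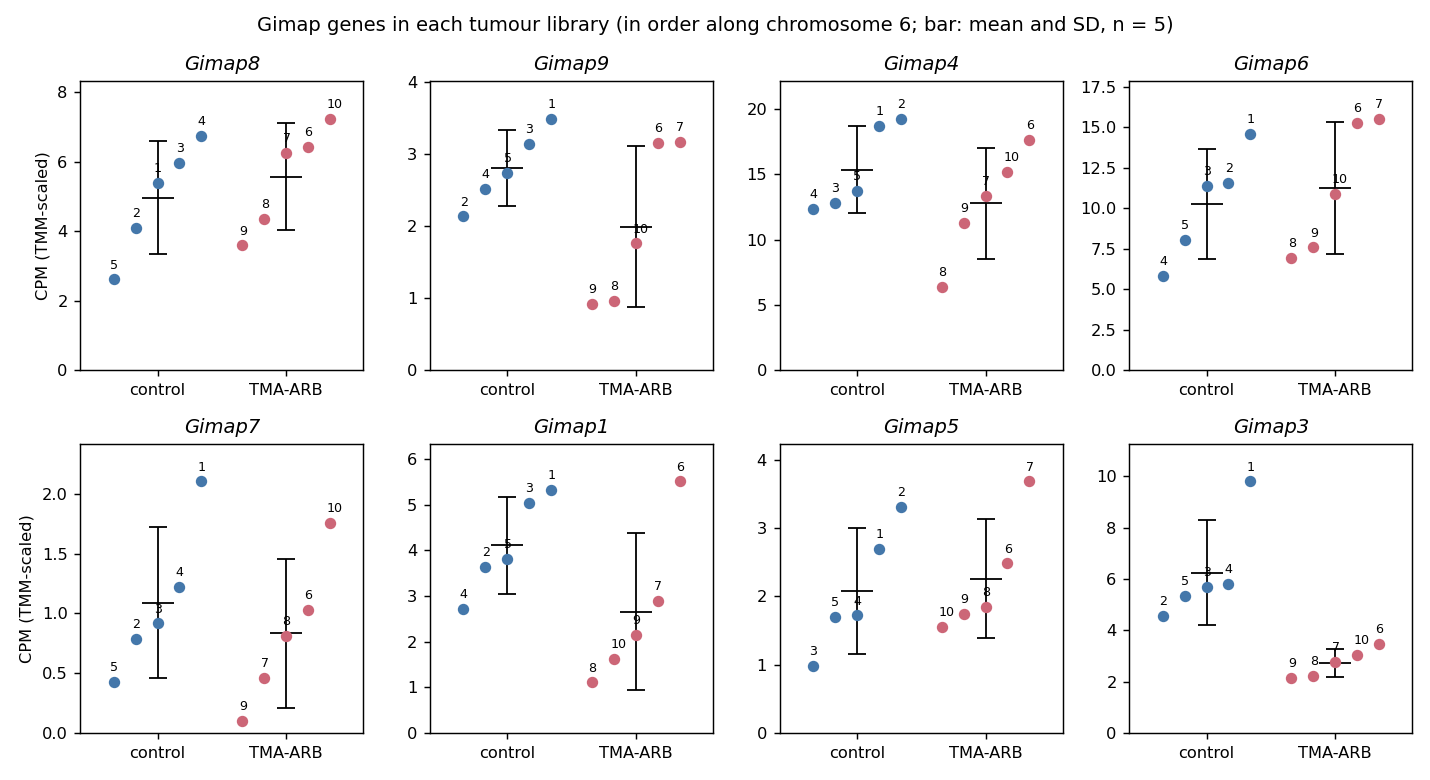
CPM of each member in every library, in order along chromosome 6; numbers are replicates, and bars give the mean and SD of 5 libraries. Only Gimap3 has groups that do not overlap (4.54 to 9.80 CPM in controls, 2.15 to 3.45 under TMA-ARB).

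The median fold change of the 8 members was -0.31 on the log2 scale, with 5 negative and 3 positive, beside a median of 0.02 and 47.2% negative over all genes tested. The median was 0.11 without TMA-ARB replicates 8, 9 and 10, when 2 members were negative. With the mitochondrial share as a term in the fit the median was -0.12. That fit moved Gimap1 to -0.39, Gimap4 to -0.05, Gimap9 to -0.26 and Gimap7 to -0.19, all closer to 0, and Gimap5 to 0.52, Gimap6 to 0.43 and Gimap8 to 0.21, all farther from it. Along the cluster, neighbours differed in direction: Gimap5 (0.12) lies between Gimap1 (-0.62) and Gimap3 (-1.19), and Gimap6 (0.13) between Gimap4 (-0.27) and Gimap7 (-0.36). Each of these fold changes except that of Gimap3 changed sign in at least 1 other setting tried, and that of Gimap8 stayed positive in all that were run.

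**Figure D4:**
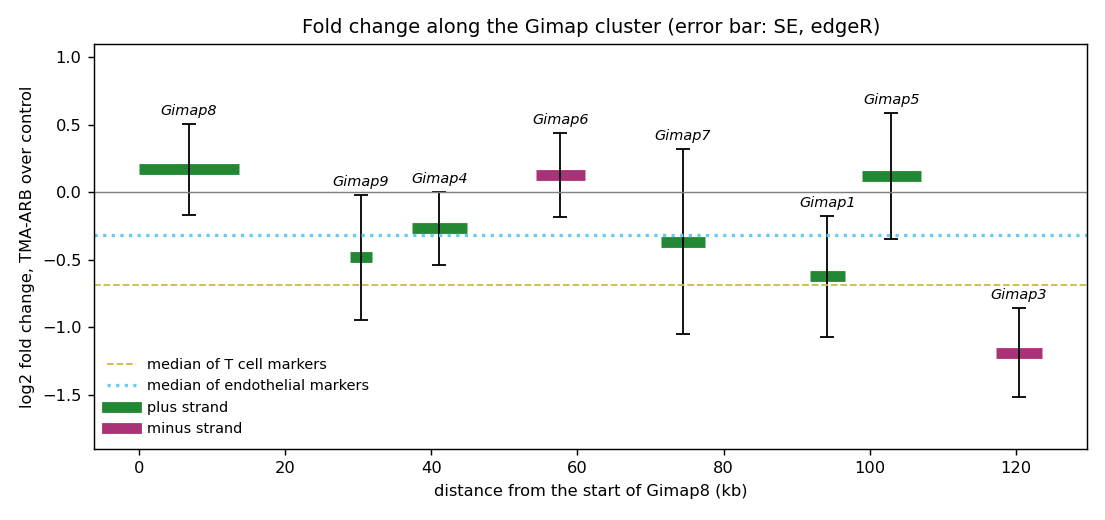
Log2 fold change (TMA-ARB over control, with SE) of each member against its position, as distance in kb from the start of Gimap8. Dashed and dotted lines are the medians of the T cell (-0.69) and endothelial (-0.32) marker lists; Gimap3, at the far end, is lowest at -1.19.

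The marker genes of the cell types that express the family were measured beside it. Of 22 T cell markers all were in the table and 19 passed the filter, all with negative fold changes (median -0.69, and -0.34 without TMA-ARB replicates 8, 9 and 10). Cd3d and Cd3e, subunits of the T cell receptor complex, had log2 fold changes of -0.13 ± 0.53 and -0.89 ± 0.78 (SE). Cd3g, a further subunit, measured 3.38 ± 0.57 CPM in controls against 1.94 ± 0.76 in treated tumours (SD, n = 5). The summed level of the list was 43.9 to 104 CPM in controls and 42.4 to 62.7 CPM under TMA-ARB, of which Thy1, also found on fibroblasts, was the largest part with group means of 22.4 and 18.7 CPM. No T cell marker had an unadjusted p under 0.05 (0 of 19, edgeR), and 0 passed after adjustment. No fit with the T cell level as a term was made.

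Endothelial markers were far more abundant. All 20 passed the filter, 16 were negative (median -0.32) and 2 had an unadjusted p under 0.05, with 0 passing after adjustment in edgeR. Their summed level was 535 to 782 CPM in controls and 449 to 603 CPM under TMA-ARB. Pecam1 and Cdh5, junction proteins of endothelial cells, measured 69.7 ± 32.4 and 59.3 ± 19.4 CPM in controls and 64.1 ± 12.4 and 45.0 ± 12.7 CPM under TMA-ARB. B cell markers were unevenly detected, and 5 of 12 passed the filter (median -0.21). Their summed level was 14.8 to 17.4 CPM in controls and 11.8 to 23.4 CPM in treated tumours, mostly from Ebf1 (768 counts over all libraries), Fcrla (603), Bank1 (422) and Cd22 (408). The B cell transcription factor Pax5 held 11 counts.

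Across the 10 libraries, members differed in how closely they followed these lists. Gimap3 followed the mean T cell marker level with Pearson r = 0.83 and Spearman rho = 0.78 (permutation p = 0.00388 and 0.0107), Gimap1 with 0.79 and 0.82 (permutation p = 0.00672 and 0.00582) and Gimap4 with 0.72 and 0.82 (permutation p = 0.0131 and 0.0056). Gimap5 and Gimap8 did so with r = 0.15 and 0.13 (permutation p = 0.686 and 0.717). All permutation p-values for these relations take in the difference between treatment groups, which was known when the family was chosen. No p-value was computed with group means removed. None of the 32 relations computed passed Benjamini-Hochberg adjustment, with a smallest adjusted permutation p of 0.070 for Pearson and 0.0816 for Spearman. Without control replicates 1 and 2, the libraries farthest from the median T cell level, r was 0.71 for Gimap3, 0.80 for Gimap1 and 0.60 for Gimap4. With each group's mean removed it was 0.72, 0.69 and 0.69. Gimap6, with r = 0.48 over all 10 libraries, was then the highest of the members at 0.74.

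The endothelial mean gave Pearson r = 0.77 for Gimap1 and 0.75 for Gimap4, with rho = 0.77 and 0.67 (permutation p = 0.00905 and 0.0112 for r, 0.0127 and 0.0396 for rho; adjusted permutation p = 0.070 for both r and 0.0816 and 0.141 for rho). Without control replicate 2 and TMA-ARB replicate 8, r was 0.75 for Gimap1 and 0.38 for Gimap4, so the relation of Gimap4 was weaker without those libraries. They held the highest and the lowest endothelial mean, and leaving them out also narrows the range that r covers. With each group's mean removed, r was 0.67 for Gimap1, 0.70 for Gimap4 and, highest of the members, 0.76 for Gimap6. For Gimap3 it went from 0.57 over all libraries to 0.16. The log2 mitochondrial share had negative r with all 8 members (-0.79 to -0.08), lowest for Gimap9. The mean B cell level gave r from -0.12 to 0.60.

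**Figure D5:**
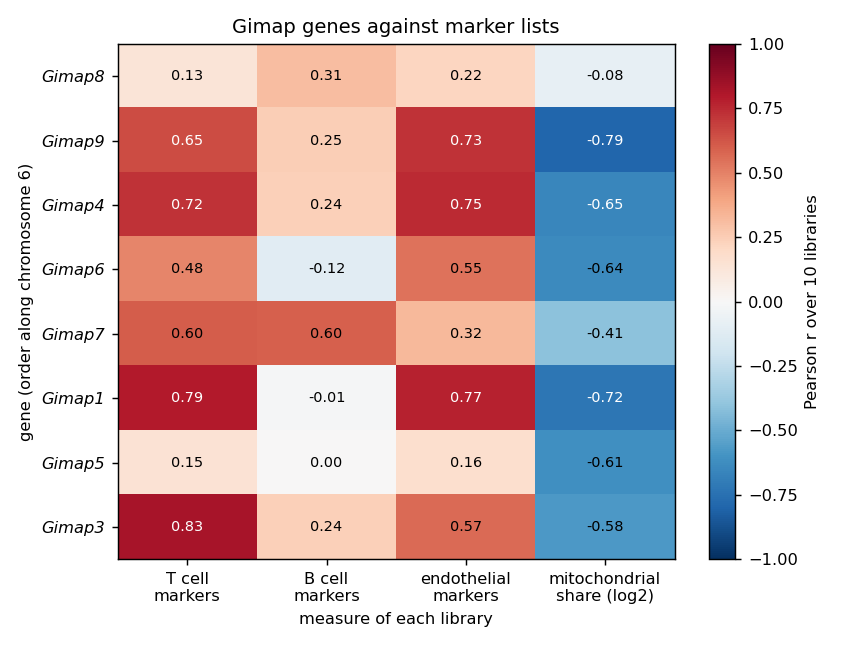
Pearson r over 10 libraries between the log2 CPM of each member (rows) and 4 measures of each library (columns). Gimap3 with T cell markers has the highest value (0.83), Gimap5 and Gimap8 have low values with both T cell and endothelial markers, and none of the 32 passed adjustment.

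Members also differed in how they followed each other, given here as a description over the same 10 libraries. Gimap1 and Gimap9 had the closest pair of patterns (r = 0.83), followed by Gimap1 and Gimap4 (0.74) and Gimap3 and Gimap9 (0.72). This order rests partly on the difference between treatment groups. With group means removed the closest were Gimap6 and Gimap9 (0.78), Gimap1 and Gimap6 (0.77) and Gimap1 and Gimap9 (0.76). The near copies Gimap3 and Gimap5 had the lowest r of all 28 pairs (-0.04), a place that rests on the difference between treatment groups. With group means removed their r was 0.19, and 3 other pairs were lower, the lowest being Gimap5 and Gimap8 (-0.02). All share the same libraries and scaling factors.

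Among 10856 other genes with a mean of at least 5 CPM, the 8 whose log2 CPM was most like the mean of the family had r from 0.94 to 0.95 over the 10 libraries. They included Scarf1 (a scavenger receptor gene), Ptpn6 (the phosphatase SHP-1 of blood cells), D2Wsu81e, Nr1h3 (the oxysterol receptor LXR alpha), Spr (sepiapterin reductase), Cmklr1 (a chemerin receptor) and Usp5 (a deubiquitinase). In all 363 genes (3.34%) had r above 0.8, and the median over the genes compared was 0.01. Ptpn6 is also on the pan-leukocyte list, and none of the 8 is on the endothelial list. None is on the T cell list either, but most T cell markers were below 5 CPM and were not compared. Cd3e, for example, averaged 1.20 CPM in controls and 0.633 CPM under TMA-ARB.

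Genes tied to the family's known roles were read from fixed lists. In the lymphocyte survival list, which runs from the interleukin 7 receptor to the Bcl2 proteins, 14 of 14 genes were tested and 0 passed in either direction, with 11 negative and 3 positive (median -0.14; 1 at an unadjusted p under 0.05 in edgeR). Il7r, the receptor for interleukin 7, averaged 4.66 ± 4.01 CPM in controls against 2.18 ± 1.51 in treated tumours (SD), and Il2rg, its signalling partner, 28.3 ± 11.5 against 21.9 ± 14.6 CPM. Bcl2l11, the gene of the cell death protein Bim, was the one with that p, at a log2 fold change of -0.87 ± 0.21; it was named after its value was seen. Among 11 genes reported to interact with Gimap proteins or close to those, 0 passed in either direction and 0 had an unadjusted p under 0.05 in edgeR (5 positive, 6 negative, median -0.03). Gsk3b, a kinase regulated through Gimap5 in T cells, had a log2 fold change of 0.19 ± 0.27, and Gabarapl2, the Gimap6 partner, 0.12 ± 0.24.

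Genes of naive and central memory lymphocytes, where the family is typically high, were negative in 9 of 10 cases (median -0.43, and -0.12 with a mean of at least 5 CPM), with 2 at an unadjusted p under 0.05 and 0 passing in edgeR. Ccr7, the chemokine receptor for lymph node entry, averaged 3.75 ± 2.34 CPM in controls against 1.94 ± 0.88 CPM in treated tumours (SD, n = 5). Tcf7, a T cell transcription factor, averaged 11.9 ± 2.91 CPM in controls against 8.88 ± 2.69 CPM in treated tumours, and Lef1, its relative, 11.5 ± 4.78 against 10.7 ± 4.37 CPM. Of 9 NK cell markers tested all were negative (median -0.76), 5 at an unadjusted p under 0.05 and 0 passing in edgeR. Among all genes tested 3.25% had an unadjusted p under 0.05. Klrb1c, the gene of the NK1.1 receptor, averaged 1.58 ± 0.42 CPM in controls against 0.301 ± 0.289 CPM in treated tumours (SD, n = 5). It held only 143 counts over all libraries. Klrd1, another receptor subunit, was at -0.01 ± 0.45 (SE). Pan-leukocyte genes were negative in 12 of 12 cases (median -0.34), but the median was 0.11 without TMA-ARB replicates 8, 9 and 10 and -0.05 with the mitochondrial share as a term. Ptprc, which encodes CD45, was at -0.18 ± 0.21.

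The promoters of Gimap3 and Gimap5 are shown for comparison, because these genes are near copies in coding sequence. The 250 bases before the RefSeq start site are given 5′ to 3′ on the gene's strand (RefSeq, GRCm38.p6), with capitals marking AGGAAG, a core of ETS factor sites, on either strand. In these windows no ETS match overlapped a match of the other motifs searched.
Gimap3, chr6:48770852-48771101, minus strand: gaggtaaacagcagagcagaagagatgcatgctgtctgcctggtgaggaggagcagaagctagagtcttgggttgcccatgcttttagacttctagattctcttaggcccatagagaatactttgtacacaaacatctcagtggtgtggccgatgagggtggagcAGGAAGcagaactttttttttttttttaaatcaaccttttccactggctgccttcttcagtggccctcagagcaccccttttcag
Gimap5, chr6:48745947-48746196, plus strand: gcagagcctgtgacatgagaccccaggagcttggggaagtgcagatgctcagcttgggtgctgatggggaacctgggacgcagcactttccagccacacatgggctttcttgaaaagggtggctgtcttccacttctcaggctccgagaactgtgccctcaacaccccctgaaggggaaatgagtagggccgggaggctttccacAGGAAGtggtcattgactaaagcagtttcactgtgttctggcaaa

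All 8 members had a promoter in the table, with 9 windows because Gimap8 has 2 starts. AGGAAG occurred on either strand in 7 of 9 windows, each in a different gene, against 29.5% of 32851 promoter windows of the same length. The RUNX core TGTGGT occurred in 3 of 9 (14.0% of all), the GATA core AGATAA in 0 of 9 (9.99%) and the KLF core CACCC in 6 of 9 (52.0%). These matches describe letters in the windows and are not binding data.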

How the data were processed

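Per the submitters' processing notes, the authors used Salmon and the mm10 build, and the deposited table holds estimated counts for 37882 genes in 10 libraries. For Salmon, its version, annotation and strand setting are not given in the sources used here. Every value was whole (0 were not), so rounding changed none, and 0 columns were left unmatched. Groups come from the sample titles.

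Genes were tested with edgeR 4.0.16 (R 4.3.3) by its quasi-likelihood method, over all genes passing its default filter, with TMM scaling, robust dispersions and Benjamini-Hochberg adjustment at 0.05. The SE of a log2 fold change is its size divided by the square root of F. Log2 CPM used a prior count of 2. Levels per kb used the GENCODE M21 principal transcript. Correlations used 100000 permutations over all 10 libraries, without regard to treatment group. Alternatives were DESeq2 1.42.0, limma 3.58.1 (voom with sample weights), RLE scaling, other filters, an adjusted p under 0.10, the mitochondrial share as a covariate, mitochondrial genes left out, and libraries left out. Merged exon length, values on each side of a 5% mitochondrial share and relations with that share were added after seeing the data. Members, lists and named-gene rules were chosen with earlier results of these data known. The rules named all members, the first 4 tested genes of each list at most, and the 8 genes most like the family mean. Some genes these rules name are not reported here.

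The edgeR step was also run on simulated data, with a set fold difference given to 200 genes. It called 1 of 50 genes at 1.5-fold, 16 of 50 at 2-fold, 33 of 48 at 3-fold and 35 of 48 at 4-fold. Among 13505 genes with no set difference it called 1. The simulated counts were drawn independently for each gene, so they lack variation that genes share between libraries, such as in the mitochondrial share. The numbers called may therefore not hold in the real libraries. Intervals cover counting error only and treat each count as an independent read, which could not be checked because no molecular identifiers are named. They do not cover how reads shared by Gimap3 and Gimap5 were divided.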

Additional observations from a re-analysis of the deposited data

Results flagged for a closer look

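Gimap3 in control replicate 1, at 9.80 CPM, lay far from the other 4 controls (4.54 to 5.81 CPM), by Dixon's test at the 95% level for 5 values. The test covered 22 sets of 5 values, and chance flags about 1 in 20 such sets. Without that library the log2 fold change of Gimap3 was -0.97 (edgeR adjusted p = 0.999; the smallest over the other settings was 0.439).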

How the results depend on the processing

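Gimap3 kept a negative fold change in every setting that tested it, from -1.28 to -0.97, and passed in none (smallest adjusted p = 0.439); with a mean of at least 5 CPM it was not tested. No member passed with any tool. The sign turned without TMA-ARB replicates 8, 9 and 10 for Gimap1 (0.038), Gimap4 (0.016) and Gimap9 (0.18), with limma-voom for Gimap7 (0.22), and with 1 library left out for Gimap5 (-0.12 to 0.35), Gimap6 (-0.011 to 0.29; -0.0029 and -0.0043 when TMA-ARB replicates 6 and 7 were left out in turn) and Gimap7 (-0.80 to 0.013); for Gimap5 it was -0.058 without control replicate 3. The cause was not tested. The family median moved to 0.13 with a mean of at least 5 CPM, which left 3 members, and to 0.11 without TMA-ARB replicates 8, 9 and 10; with 1 library left out it ran from -0.43 to -0.087. DESeq2 called 2 genes, neither of them a member, and edgeR called 0 with each library left out (0 to 0). The number of neighbouring levels told apart was 0 in the 5 controls alone, where the smallest exact p is 0.0625 and no pair could pass, 4 with no division by length, 3 with merged exon length, and 1 to 2 with 1 library left out. List medians that moved by more than the spread between libraries without TMA-ARB replicates 8, 9 and 10 were endothelial (0.039), macrophage (0.22), fibroblast (0.40), epithelial (1.71), reported partners (-0.33) and mitochondrial (-0.60); the pan-leukocyte median turned to 0.11 within that spread. Other medians that moved so were naive and central memory (-0.12) and B cell (0.49) with a mean of at least 5 CPM, B cell (0.058) and epithelial (1.65) with no filter, and mitochondrial (0.071) with its share as a covariate. No paired analysis was possible because the replicate numbers run from 1 to 10 and no number is shared between groups. With as few as 1 count per library, Gimap7 allows no firm fold change.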

Other observations

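The genes that flank the cluster were measured as a local comparison. Zfp775 and Repin1, zinc finger genes before Gimap8, had log2 fold changes of -0.09 ± 0.40 and -0.37 ± 0.25 (SE), and Tmem176b and Tmem176a, membrane protein genes after Gimap3, had -0.24 ± 0.33 and -0.11 ± 0.29; 0 of the 4 passed edgeR (adjusted p = 0.997) and 0 had an unadjusted p under 0.05. Aoc1, further on, had 0 counts in every library. Gimap1os, an RNA on the strand opposite to Gimap1, held 52 counts over the 10 libraries and at most 12 in one, against 519 for Gimap1.

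Macrophage markers had a median log2 fold change of -0.48 (9 of 11 negative), fibroblast markers -0.06 (5 of 9 negative) and epithelial markers 0.77 (4 of 5 positive), with 0 passing in edgeR and 1, 0 and 1 at an unadjusted p under 0.05. Leaving out TMA-ARB replicate 6 alone took the epithelial median to 0.0058 and the fibroblast median to -0.32, and over all libraries left out in turn they ran from 0.0058 to 1.06 and from -0.32 to 0.27.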
